A study of Arabidopsis thaliana with 3 samples.

Results

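The genes described here encode the vacuolar aspartic proteases APA1 (AT1G11910), APA2 (AT1G62290) and APA3 (AT4G04460) and the vacuolar processing enzyme gamma-VPE (AT4G32940) of Arabidopsis thaliana. They are 4 genes, named by their AGI codes and looked up in the authors' annotated list of RNA binding sites of TSN1 (Tudor-SN1, AT5G07350), which holds 5673 sites in 1504 target genes. APA1 and gamma-VPE are among those targets, and APA2 and APA3 are not. The genes were chosen by their numbers of binding sites in this same list, so site numbers and scores are given as a description with no test.

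The RNA bound by TSN1 was mapped by iCLIP2, in which ultraviolet light joins protein to RNA in the living plant, the protein is captured with its RNA, and copying of the RNA into DNA halts where the protein was joined. The 3 samples were biological replicates of 1 kind, with no control. All were 14-day-old seedlings carrying pTSN1::GFP:TSN1, a fusion of TSN1 to green fluorescent protein under the TSN1 promoter, in Col-0, a background that is wild type and so still makes its own untagged TSN1. The plants grew in 16 h light and 8 h dark at 20 °C, were collected at ZT10 (10 h after lights on), and were mainly aerial tissue, with 3 plates pooled per replicate.

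Plant vacuoles break down and mature proteins with several classes of protease. The aspartic proteases of the APA type are made as precursors that pass through the endoplasmic reticulum (ER) and carry a saposin-like stretch, the plant-specific insert, which is removed on maturation. Vacuolar processing enzymes are cysteine proteases of the legumain family that cut after asparagine, activate other vacuolar proteins by that cut, and act in vacuole-mediated cell death. APA1 is known from most tissues and gamma-VPE from vegetative tissue, while APA2 and APA3 are known mainly from seeds and flowers. TSN1 is an RNA-binding protein known from stress granules and from the ER.

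The deposited lists pool the 3 replicates, so each value below is 1 value with no spread between replicates, and the read depth is unknown here. A called peak is a single position (1 nt) and a binding site is a window of 5 nt, both with a score that is the authors' own, has no stated unit and is used only to describe and rank within the lists. In each of the 32 sites of these genes the site score was that of its strongest called peak. Over all 5673 sites the median score was 12.5 (quartiles 8.24 and 19.1), and over all 72935 called peaks it was 3.78. The leaf genes CAB1, a light-harvesting protein, and RBCS1A, a small subunit of Rubisco, had 5 and 2 sites, with summed scores of 709 and 314. PYK10, a beta-glucosidase gene known from root and hypocotyl, had 18 sites and a summed score of 284, so the lists also hold RNA known from tissue other than leaf. Without a control pull-down, and with RNA levels not measured, a site number does not separate binding by TSN1 from the amount of an RNA, from the share of cells that hold it or from background.

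Both APA1 and gamma-VPE were targets with several sites, and APA2 and APA3 had no binding site and no called peak. APA1 had 24 sites and 187 called peaks, and gamma-VPE had 8 sites and 132 called peaks. Thus 2 of the 4 members had at least 1 site, where 5.04% of all 27444 nuclear protein-coding genes and 73.8% of the 1837 with a called peak did. The same 2 members had at least 1 called peak, against 6.69% of nuclear protein-coding genes. Because the group was picked for the sites of its members, these shares are given beside each other and nothing is read from them.

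APA1, the aspartic protease gene, held 24 of the 32 member sites. They lay on the minus strand of chromosome 1 between 4016931 and 4019648 (TAIR10), a stretch of 2718 nt, and 19 carried the authors' label 3' UTR (untranslated region) while 5 were labelled CDS (coding sequence). Among the 1403 protein-coding targets APA1 was at rank 6 by number of sites, shared with 1 other gene, where the median target had 2 sites and the highest 36. By summed score it was at rank 8 with 686, against a median of 24.7 and quartiles of 11.0 and 70.8.

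Most site scores of APA1 were high, and its summed score was not the product of 1 strong site. They ran from 10.7 to 68.5 with a median of 26.1 (quartiles 22.4 and 31.6), and 22 of the 24 lay above the median of all sites. The highest single site gave 9.99% of the summed score. By median site score APA1 stood at rank 84 of 1403, above 94.0% of protein-coding targets, and by its highest site at rank 54. The number of sites therefore placed APA1 nearer the top than the score of its best site did.

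The site with the highest score in APA1 was labelled CDS. It covered 4019578 to 4019582, scored 68.5 and held 5 called peaks, the most of any member site. Next came the site at 4016958 to 4016962, labelled 3' UTR, with a score of 51.2, and the site at 4018963 to 4018967, also labelled 3' UTR, with 48.7. The CDS-labelled site at 4019427 to 4019431 scored 41.2. The next site, at 4018770 to 4018774, scored 34.0.

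The 5 CDS-labelled sites of APA1 lay between 4019403 and 4019648, all upstream of the 19 labelled 3' UTR in the direction of transcription. Their scores ran from 23.3 to 68.5 with a median of 33.2. The sites labelled 3' UTR ran from 10.7 to 51.2 with a median of 24.3. The ranges overlapped over most of their length, and all sites of a gene come from the same transcripts and libraries, so no test was made.

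Sites of APA1 came in short groups. With centres at most 30 nt apart counted as 1 group, the 24 sites formed 17 groups, of which 5 held several sites. The largest was at the 3' end, where 4 sites lay within 69 nt (4016931 to 4016999) and scored 22.8, 51.2, 31.1 and 14.8. A pair at 4018340 to 4018344 and 4018345 to 4018349 touched, with scores of 21.3 and 28.6. Centres of neighbouring sites were a median of 92 nt apart (quartiles 27 and 188), and the widest distance was 470 nt. The median distance was 179 nt over the 915 nuclear protein-coding targets with several sites, and 23.5% of these had a shorter one than APA1.

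Gamma-VPE, the legumain-type processing enzyme, had fewer and lower-scoring sites spread over a stretch of nearly the same length. Its 8 sites lay on the minus strand of chromosome 4 between 15900397 and 15903034, over 2638 nt. By number it was at rank 133 of 1403 protein-coding targets, with 45 genes at 8 sites, and by summed score at rank 245 with 100.1. Its median site score was 12.3, and 3 of the 8 sites lay above the median of all sites.

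The 8 sites of gamma-VPE are given from the 5' to the 3' side. The most upstream, at 15903030 to 15903034 and labelled CDS, had the highest score, 20.2. The other CDS-labelled site, at 15902616 to 15902620, had the lowest, 8.14. Then followed 6 sites labelled 3' UTR, of which a pair at 15902173 to 15902177 and 15902159 to 15902163 scored 12.4 and 9.23. Single sites at 15902022 to 15902026 and 15901355 to 15901359 scored 12.5 and 12.1. The last 2, at 15900428 to 15900432 and 15900397 to 15900401, scored 17.2 and 8.23. Its highest scores were thus those of the most upstream site and of the site next to the most 3' one. Neighbouring centres were a median of 414 nt apart (quartiles 84 and 555) and at most 927 nt, and 80.1% of nuclear protein-coding targets with several sites had a shorter median distance.

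**Figure D1:**
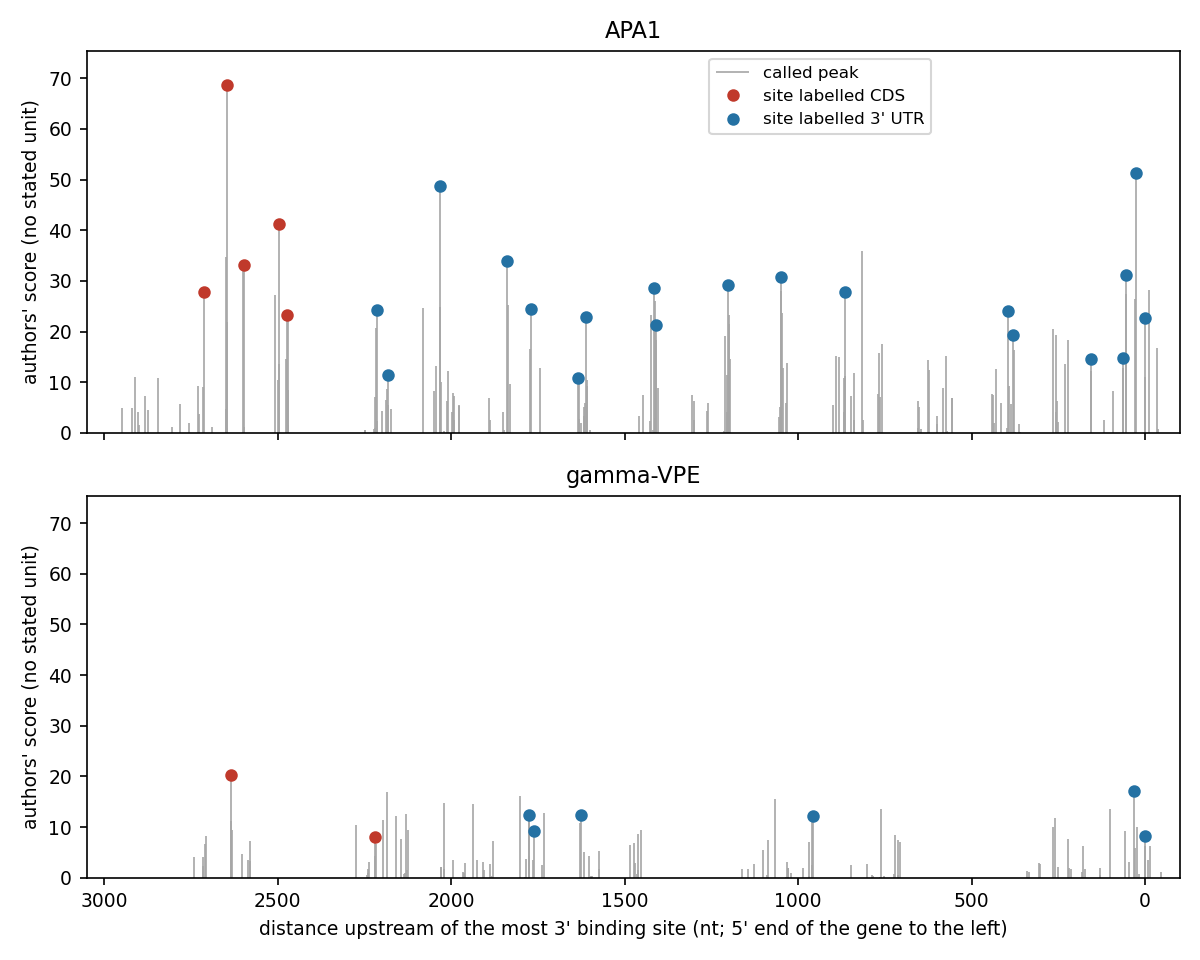
Called peaks (grey lines) and binding sites (points, coloured by the authors' region label) of APA1 and gamma-VPE, with the authors' score (no stated unit) on the vertical axis and the distance in nt upstream of the most 3' binding site on the horizontal axis, 5' end to the left. APA1 has 24 sites with scores of 10.7 to 68.5 and gamma-VPE 8 sites with scores of 8.14 to 20.2, and in both genes the CDS-labelled sites are the most upstream.

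Site number and summed score placed APA1 alike, at ranks 6 and 8 of 1403, but did not place every gene alike. SNG1 (AT2G22990), a sinapoyltransferase gene of the serine carboxypeptidase-like type, was the other gene with 24 sites. Its summed score was 595 and its median site score 21.6, where APA1 had 686 and 26.1. RD19 (AT4G39090), a papain-type cysteine protease gene, had 9 sites, 1 more than gamma-VPE, and a summed score of 1022 with a median of 95.1, so its summed score exceeded that of APA1. Sites per 1000 nt of gene span, introns included, were 5.54 in APA1 and 5.65 in SNG1. The value was 4.34 in RD19 and 2.46 in gamma-VPE. APA1 was at rank 33 and gamma-VPE at rank 396 of 1383 nuclear targets by this density, whose median was 1.30. RD19 was set beside APA1 for its summed score after the values were seen.

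**Figure D2:**
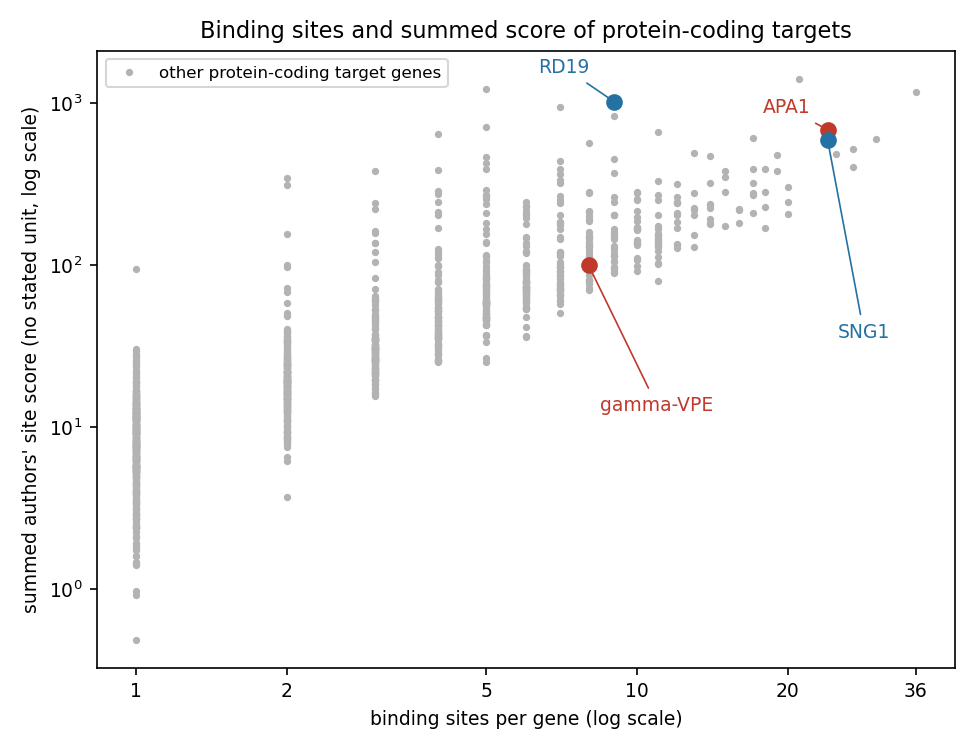
Number of binding sites (horizontal, log scale) against summed site score (vertical, log scale, no stated unit) for the 1403 protein-coding targets in grey, with APA1, gamma-VPE, RD19 and SNG1 marked. APA1 and SNG1 lie together at 24 sites, while RD19 with 9 sites lies above both in summed score and gamma-VPE lies at 8 sites and 100.1.

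The region label covered long stretches of both genes. In APA1 the 19 sites labelled 3' UTR spanned 2219 nt (4016931 to 4019149), and in gamma-VPE the 6 so labelled spanned 1781 nt (15900397 to 15902177). The gene spans are 4332 and 3254 nt. Among the 711 protein-coding targets with several sites of this label, the median stretch was 490 nt, and APA1 and gamma-VPE were at ranks 42 and 81. Taken as deposited, 79.2% of APA1 sites (19 of 24, Wilson 95% interval 59.5 to 90.8) and 75.0% of gamma-VPE sites (6 of 8, interval 40.9 to 92.9) had the 3' UTR label, and 67.0% of the 5295 sites of all protein-coding genes did. Counted only within 500 nt of the most 3' site so labelled, 7 sites of APA1 (29.2%) and 2 of gamma-VPE (25.0%) had it. The intervals cover counting error only and treat the sites of a gene as independent. In both genes, however, each label formed an unbroken block. No source used here states the rule behind the label, and no exon model was used, so which of these sites lie past the stop codon was not settled. The other labels, 5' UTR and intron, were given to 0 of the 32 sites.

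Called peaks of APA1 lay densely but were missing from the 5' part of its gene span. The 187 called peaks lay between 4016897 and 4019881, over 2985 nt, at 6.26 per 100 nt and a median of 4 nt apart. The first 1162 nt of the gene span, 26.8% of its length, held none. The span includes introns and no exon model was used, so whether this part belongs to the messenger RNA was not tested. Over the 1355 nuclear protein-coding targets with called peaks given to them, the first called peak came after a median of 20.9% of the span, and 57.3% of these had a smaller share free of peaks than APA1. In gamma-VPE the 132 called peaks lay between 15900354 and 15903141, at 4.73 per 100 nt and a median of 7 nt apart, and the first 382 nt of the span held none.

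Inside these stretches both genes had runs with no called peak. In gamma-VPE these were 366 nt (15900739 to 15901104), 302 nt (15902675 to 15902976) and 290 nt (15901562 to 15901851) long. In APA1 the longest was 220 nt (4019182 to 4019401) and lay between the sites labelled CDS and those labelled 3' UTR. The next was 140 nt (4017990 to 4018129). Whether these runs match introns was not tested.

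Within the stretch that holds called peaks, the site number of APA1 was the same in the 5', middle and 3' parts. With that stretch divided into 3 equal parts, APA1 had 8 sites in each part, with 65, 57 and 65 called peaks. The median site score was 30.5 in the 5' part, 26.5 in the middle and 23.4 in the 3' part. Gamma-VPE had 2, 4 and 2 sites in the same order, with 44, 48 and 40 called peaks. On a scale from 0 at the 5' end of the gene span to 1 at the 3' end, the median site lay at 0.60 in APA1 and at 0.44 in gamma-VPE. Over 1376 nuclear protein-coding targets the gene medians had a median of 0.66 and quartiles of 0.49 and 0.83, so 39.6% of targets lay further to the 5' side than APA1 and 18.7% further than gamma-VPE. The gene span includes introns, so these are not positions along the messenger RNA.

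A larger share of the called peaks fell inside binding sites in APA1 than in gamma-VPE. In APA1 62 of 187 called peaks did (33.2%, Wilson 95% interval 26.8 to 40.2), and in gamma-VPE 18 of 132 (13.6%, 8.80 to 20.5). Over protein-coding targets it was 11013 of 63614 (17.3%, 17.0 to 17.6). The intervals cover counting error only and treat neighbouring peaks as independent, which they are not. Among the 56 targets with at least 132 called peaks, the median share was 18.3% (quartiles 15.0 and 24.0). Of these, 55 had a lower share than APA1, which was therefore the highest, and 7 had a lower share than gamma-VPE. This subset was chosen after the data were seen. The share also depends on the number of sites, by which the group was chosen. There were 7.79 called peaks per site in APA1 and 16.5 in gamma-VPE, so the share is not a trait separate from site number. A site of APA1 held a median of 2.5 called peaks and one of gamma-VPE a median of 2.

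Peaks outside sites were not always weak. In APA1 called peaks inside sites had a median score of 20.0 and those outside 6.23. In gamma-VPE the medians were 9.30 and 2.77. Each site carries the score of its strongest peak, so higher scores inside sites follow in part from how sites were made. Sites held 54.6% of the summed peak score of APA1 and 25.3% of that of gamma-VPE, shares that also depend on the number of sites. The strongest peak of APA1 outside a site was at 4017748, 51 nt from the nearest site centre, and its score of 36.0 was at rank 5 among all peaks of the gene. The authors' site numbers in APA1 run from 1204 to 1228 with only 1211 absent, and that number falls between the sites at 4017327 and 4017797, on either side of this peak. In the whole list 1347 of 7020 numbers are absent.

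In gamma-VPE the peaks ranked 3 to 8 by score all lay outside sites. The strongest was at 15902584 with 17.0, followed by 15902200 with 16.2 and 15901465 with 15.5. These lay 34, 25 and 108 nt from the nearest site centre. In all, 9 peaks outside sites in gamma-VPE scored above its median site, and 3 did in APA1. The site numbers of gamma-VPE run from 5094 to 5101 with none absent. Peak score alone therefore did not decide which positions of these genes were listed as sites, and the rule that did is not stated in the sources at hand.

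The other vacuolar processing enzymes had neither sites nor called peaks. These are alpha-VPE, known from vegetative tissue like gamma-VPE, beta-VPE, known from seeds, and delta-VPE, known from the seed coat, and 0 of the 3 had a called peak. Also 0 of 7 genes of seed storage proteins, which are known clients of seed vacuolar proteases, had a called peak. Only 6.69% of all nuclear protein-coding genes had a called peak, so nothing particular to these short lists is read from their zeros.

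Several genes of other vacuolar proteases and hydrolases were targets. Among 15 papain-type cysteine protease genes, 10 had a called peak and 8 had a site, 7 of them at least 2, with a median of 1 site per gene. For genes without a site, here and over all genes, called peaks on either strand were counted. Over all nuclear protein-coding genes 6.69% had a called peak and 5.04% a site, and of those with a called peak 73.8% had a site, a share near the 8 of 10 found here. The members' own median was 4, and that of all nuclear protein-coding genes 0. ALP (AT5G60360), the aleurain-type protease, had 10 sites on chromosome 5 between 24280217 and 24282288, with a summed score of 280 and 127 called peaks. RD19 had 9 sites on chromosome 4 between 18215731 and 18217283. All 3 soluble vacuolar hydrolase genes were targets. The lowest of them, AT1G62660, a vacuolar invertase gene, had 2 sites, a summed score of 8.59 and 19 called peaks. SCPL49 (AT3G10410), of the carboxypeptidase Y type, had 17 sites, a summed score of 281 and 152 called peaks. ATBETAFRUCT4 (AT1G12240), a vacuolar invertase known as a client of gamma-VPE, had 11 sites, a summed score of 112 and 140 called peaks.

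Of these vacuolar genes, APA1 had the most sites, ahead of SCPL49 with 17, and gamma-VPE lay among the cysteine proteases. RD21A (AT1G47128), whose protein is a granulin-containing cysteine protease, also had 8 sites, with a summed score of 283 and a median site score of 37.3 where gamma-VPE had 100.1 and 12.3. Equal site numbers thus went with different scores.

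Sorting receptor and inhibitor genes that were targets had 1 or 2 sites each. Vacuolar sorting receptors bind soluble cargo on its way to the vacuole, and 2 of 8 genes had a site, VSR4 (AT2G14720) with 2 sites and 18 called peaks and VSR1 (AT3G52850) with 1 site and 58 called peaks. Among 5 genes of protease inhibitors, 2 had a site, the cystatin gene CYSB (AT3G12490) and the Kunitz-type inhibitor gene KTI1 (AT1G73260) with 1 each. Over all nuclear protein-coding genes 5.04% had a site, and 73.8% of those with a called peak did. The cystatin gene CYS1 had no site and 17 called peaks, which were counted on either strand. Of 3 aspartic protease genes outside the APA type, ASPG1 (AT3G18490), known from guard cells and drought, had 6 sites and 104 called peaks, and CDR1 and PCS1 had no called peak. At least 2 sites were found in 3.33% of nuclear protein-coding genes and in 49.0% of those with a called peak. The lists are short, were written with earlier results of these data known, and were not tested.

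**Figure D3:**
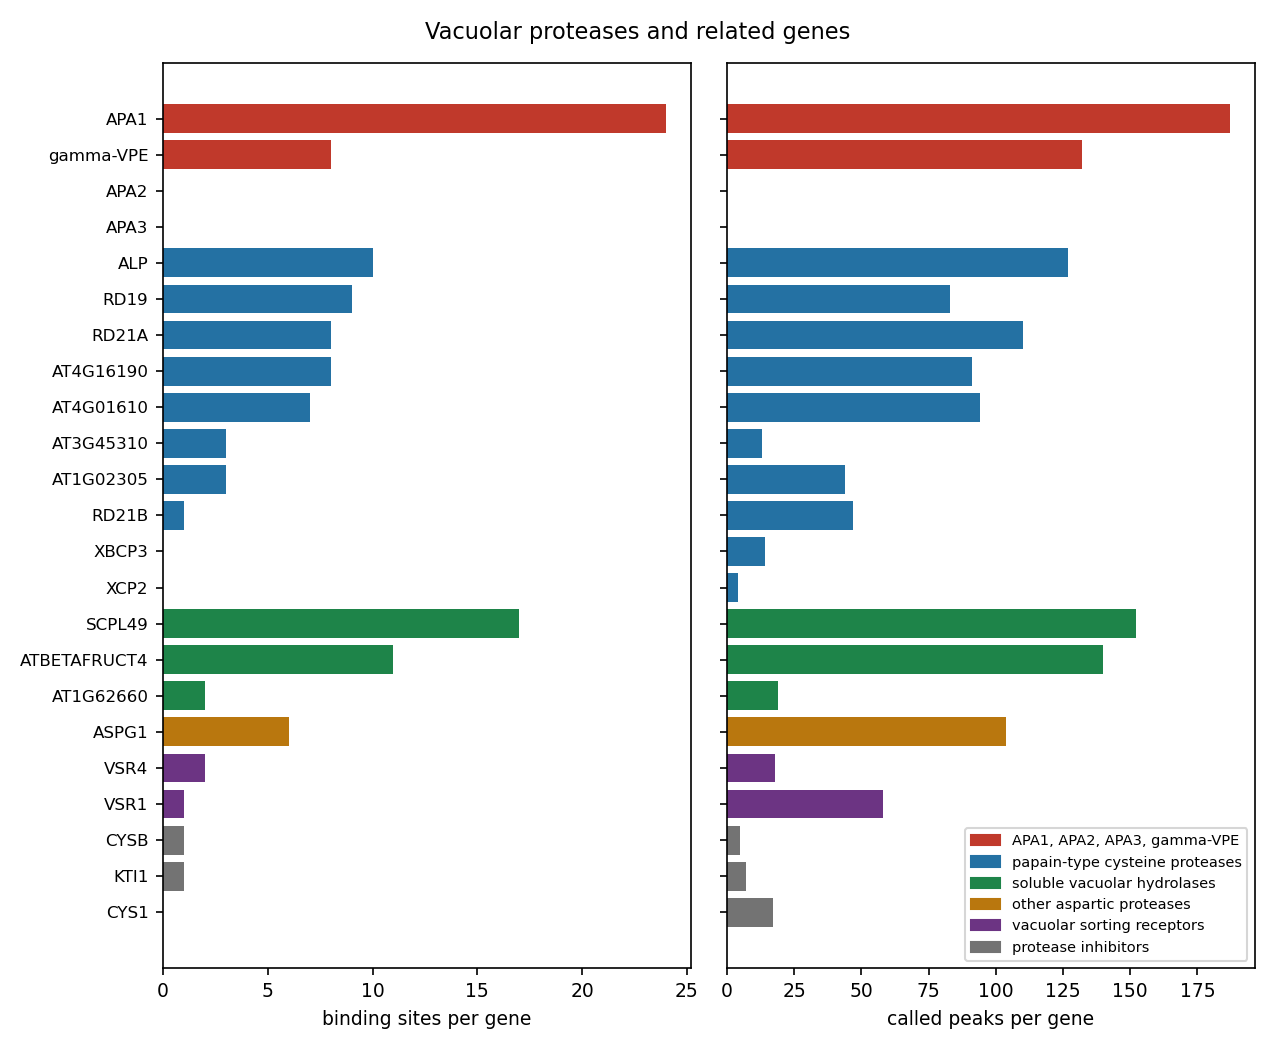
Binding sites (left) and called peaks (right) per gene, coloured by list. Shown are APA1, gamma-VPE, APA2, APA3 and those genes of 5 lists of related genes that had a called peak. The lists of other vacuolar processing enzymes and of seed storage proteins held no gene with a called peak and are not drawn. APA1 has the longest bar in both panels with 24 sites and 187 peaks, and APA2 and APA3 have none.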

How the data were processed

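TSN1 iCLIP2 was made from 3 replicates, and the 4 deposited files are lists of the whole series. Per the labels' protocols, the GFP fusion was captured with GFP-Trap, libraries carried barcodes and unique molecular identifiers (UMIs), which separate PCR copies from molecules, and had 18 PCR cycles and reads of 50 nt. Listed in the submitters' processing notes are the aligner STAR 2.7.3a, UMI-tools 1.0 for the UMIs, bedtools 2.27.1, FastQC 0.11.5 and the genome TAIR10. No source used here names the peak caller or how replicates were pooled. Per the file headers, sites carry the highest matching peak score; deposited score values have no stated unit. The deposited count of sites per gene matched the site list for all 1504 targets.

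Coordinates are 1-based. Called peaks were given to a gene when they lay inside exactly 1 protein-coding gene span of the RefSeq TAIR10.1 table, which carries no strand, so strand was taken from the gene's own sites and, for genes without sites, peaks on either strand counted. Of the 1403 protein-coding targets, 1383 had a nuclear span. Intervals are Wilson 95% intervals (SciPy 1.17.1, pandas 2.3.3) and cover counting error of sites or peaks only. No test was made, since no value belongs to 1 replicate. Peak assignment and overlap were tested on simulated data. All 4 members are named, and of each list the 2 genes with the most sites. RD21A, AT1G62660, CYS1, CDR1, PCS1 and the processing enzymes without peaks were added after their values were seen. Members and lists were chosen with earlier results of these data known. Alternatives covered score thresholds, the overlap of peaks with sites, the reach of the 3' UTR label, gene assignment and the minimum of sites. No site sequence is shown, as no genome was used here.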

Additional observations from a re-analysis of the deposited data

How the results depend on the processing

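APA1 kept 22 of its 24 sites above the median site score and 138 of its 187 peaks above the median peak score, while gamma-VPE kept 3 of 8 sites and 59 of 132 peaks. For gamma-VPE these sites summed to 49.9 instead of 100.1, and their median distance was 1301 nt instead of 414. The share of called peaks inside sites was 55.6% in APA1 and 22.0% in gamma-VPE when peaks within 10 nt of a site also counted. With peaks above the median score alone it was 27.1% in gamma-VPE and 37.7% in APA1. APA1 had the higher share in each of these settings, but the share depends on the number of sites in all of them. Counting the 3' UTR label only within 500 nt of its most 3' site lowered the share to 29.2% in APA1 and 25.0% in gamma-VPE. With at least 2 sites required, 1 of 8 sorting receptor genes and 0 of 5 inhibitor genes remained as targets. In each of these cases the alternative counts fewer or more sites or peaks by its construction. Counting peaks in overlapping spans changed no member's number, APA2 and APA3 at 0 included. Of 27 alternative values of results above 0, 16 stayed within 1.5 times the value, its interval or the spread of positions. Among the 56 targets with at least 132 called peaks, an alternative added after seeing the data, 98.2% had a lower share of peaks inside sites than APA1 (88.3% of the 1355 protein-coding targets with called peaks given to them) and 12.5% a lower one than gamma-VPE (32.0% of the 1355). Region labels and spliced positions from exon models were not run, as none was used here. No paired analysis was possible because there is 1 group and no value per replicate, and for the same reason no replicate could be left out.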

Other observations

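Aspartic proteases outside the APA type were also among the targets. The authors' descriptions name 9 further target genes as members of the aspartyl protease family, 1 of which is ASPG1. They had 1 to 9 sites each (median 4) and summed scores between 12.0 and 205, all below the 686 of APA1. Family genes that are not targets were not counted, so this median leaves out genes without a site. Over all nuclear protein-coding genes 5.04% had a site. The 9 genes were chosen by their descriptions after the data were seen. AT1G03220 led them with 9 sites on chromosome 1 between 787187 and 788507 and a highest score of 47.4, and AT3G52500 had 7 sites on chromosome 3 between 19465587 and 19466909. Of the 39 sites of the 9 genes, 25 were labelled CDS and 14 3' UTR. In APA1 the labels were 5 and 19. Those 19 sites spanned 2219 nt, and 7 of them lay within 500 nt of the most 3' one. The rule behind the label is not stated, so these counts do not show which sites lie past the stop codon. The genes differed, with 7 of 9 sites labelled CDS in AT1G03220 and 5 of 6 labelled 3' UTR in AT1G09750. Over all protein-coding genes 67.0% of sites had the 3' UTR label.

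The saposin domain found in the insert of APA proteins also occurs in other genes. AT3G51730, described by the authors as a saposin B domain gene, had 9 sites on chromosome 3 (19187037 to 19188587), 8 with the 3' UTR label, with a summed score of 150 and 83 called peaks.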
